A study of Mus musculus with 11 samples.

Results

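Astrocytes that respond to injury, infection or degeneration change a shared set of transcripts, and 8 of these reactivity genes were followed here through the glial and vascular cell classes of mouse brain. They were taken as a list of symbols and all 8 were found among the 25938 genes of the deposited nuclear count matrix: the intermediate filament genes Gfap and Vim, the secreted proteins Serpina3n, C4b and Lcn2, the receptors Osmr and Cd44, and the transcription factor Stat3. The matrix held 110304 nuclei from 11 single-nucleus libraries of snap-frozen brain. Each nucleus carried 1 of 10 deposited class names, predicted by the submitters.

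In the general picture of astrocyte reactivity, cytokines of the interleukin-6 family such as oncostatin M bind receptors that share the gp130 chain, Janus kinases phosphorylate STAT3, and STAT3 enters the nucleus and raises Gfap, Vim and acute phase genes. Lcn2, Serpina3n and C4b are among the most inducible of these in models of systemic inflammation. Vim and Osmr are also transcribed in endothelial and mural cells, so the class in which a count arises matters for each of them.

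By their labels, all mice were homozygous for a human transferrin receptor knock-in (the strain column of the deposited nucleus table reads C57BL/6J), and they received 4 weekly intravenous doses, with tissue taken 72 h after the last. The reference group received ATV:BACE1 at 57 mg per kg (n = 3 libraries), a receptor-binding transport vehicle without oligonucleotide that by its name is directed at the protease BACE1. OTV:Malat1 at 60 mg per kg (n = 3) joined an antisense oligonucleotide (ASO) against the nuclear RNA Malat1 to the receptor-binding vehicle, nonTV:Malat1 at 60 mg per kg (n = 3) joined it to a carrier without that binding (its titles read RSV-ASO, and the group follows the treatment label), and Malat1 ASO at 2.5 mg per kg (n = 2) was the oligonucleotide alone. Replicate 1 of each group was female and 2.33 months old, replicate 4 was male and 2.57 months old, and replicate 5 was male and 2.33 months old. Each replicate number was 1 deposited batch (replicates 1, 4 and 5 were batches 1, 3 and 4), so sex, age and batch could not be told apart. The ASO group had no replicate 4. No untreated library was analysed here, so every change is against mice that also received a transport vehicle. The labels give each library a sex and an age but no animal identifier, and p-values measure the spread between libraries.

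Libraries held 7546 to 13840 nuclei and 33235994 to 43972886 unique molecular identifiers (UMIs), with a median of 2859 UMIs per nucleus. OTV:Malat1 replicate 5 had the most nuclei, the lowest median (2205 UMIs) and the fewest astrocyte UMIs (928714, against 3420106 in nonTV:Malat1 replicate 1, the highest). Of 108788 barcode sequences, 1495 occurred in more than 1 library. Nuclei marked as doublets by the submitters made up 10.38% and were kept. Malat1, the RNA that the ASO was directed at, was measured in the same fits. Its log2 change with OTV:Malat1 against ATV:BACE1 was -1.55 in astrocytes (SE 0.157, edgeR adjusted p = 3.59e-07) and -2.44 in oligodendrocytes (edgeR adjusted p = 2.34e-17). It did not pass in glia (-0.50, edgeR adjusted p = 0.465) or leptomeningeal cells (-0.33, edgeR adjusted p = 0.996). A call for Malat1 does not show what could be detected for members on few UMIs.

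The class named astrocytes held 12720 nuclei, 847 to 1732 per library, at a median of 1402 UMIs. Its summed level of 6 astrocyte markers was 8305 CPM (counts scaled to the class total of a library), led by the glutamate transporter gene Slc1a2 at 5826 CPM. The same list summed to 440.1 CPM in neurons. RNA of other cells was also present in astrocytes: 1088 CPM of the choroid plexus list, of which Ttr gave 1079, 1130 CPM of the oligodendrocyte list, and 91.7 CPM of the endothelial list, which reached 11470 CPM in endothelium. Several other names went against their markers. Nuclei named pericytes carried more of the endothelial list (9160 CPM) than of the pericyte list (5111 CPM). Nuclei named smooth muscle carried 4017 CPM of the pericyte list and 983.7 CPM of the smooth muscle list, at a median prediction score of 0.545. Nuclei under the name glia carried mostly choroid plexus (4079 CPM), astrocyte (1536 CPM) and ependymal (1067 CPM) markers, and the leptomeningeal class held 2173 CPM of astrocyte markers beside 2496 CPM of its own. The deposited names are kept below as names only.

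Of the filament genes, Gfap (glial fibrillary acidic protein; GRCm38 chr11:102887336-102900912, minus strand) was highest in astrocytes. Its level there was 101.5 CPM ± 15.9 (SD, n = 11), from 68.9 to 118.5 CPM over libraries. Glia followed at 38.6 CPM ± 20.8 (SD, n = 11) and leptomeningeal cells at 35.01 CPM ± 22.1 (SD, n = 11). Astrocytes exceeded glia in 11 of 11 libraries, but the ranges of the classes overlapped. Below them, smooth muscle (24.9 CPM, n = 8), microglia (21.1), endothelium (19.8), oligodendrocytes (19.6) and pericytes (12.2 CPM, n = 11 each) did not separate beyond their spread, and neurons were at 6.06 CPM ± 1.41 (SD, n = 11). Class names come from expression, so classes were not tested against each other.

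The neuronal Gfap level was 6.001% ± 1.08 (SD, n = 11) of the astrocyte level. The 6 astrocyte marker genes appeared in neurons at 2.89% (Slc1a3) to 6.43% (Slc1a2), and 5 of the 6 were below Gfap. The neuronal level of C4b, at 4.12% of the astrocyte level, lay in that same range. By their means, Osmr (12.3%), Vim (18.9%), Cd44 (17.2%), Serpina3n (41.5%) and Stat3 (44.9%) were above it. Over libraries Serpina3n ran from 14.4 to 85.9% and Osmr from 6.26 to 24.6%, the latter reaching into the range of the markers. Neuronal levels of Gfap and C4b, within the range of the markers, were not read as expression in neurons. Whether the members above it are expressed in neurons was not tested, and Vim and Osmr were highest in vascular classes. In oligodendrocytes Gfap was at 19.1% and C4b at 16.7% of the astrocyte level, above the markers there (3.89% for Slc1a2 to 11.65% for Gja1). Free RNA, doublets and misnamed nuclei cannot be told apart in these shares.

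**Figure D1:**
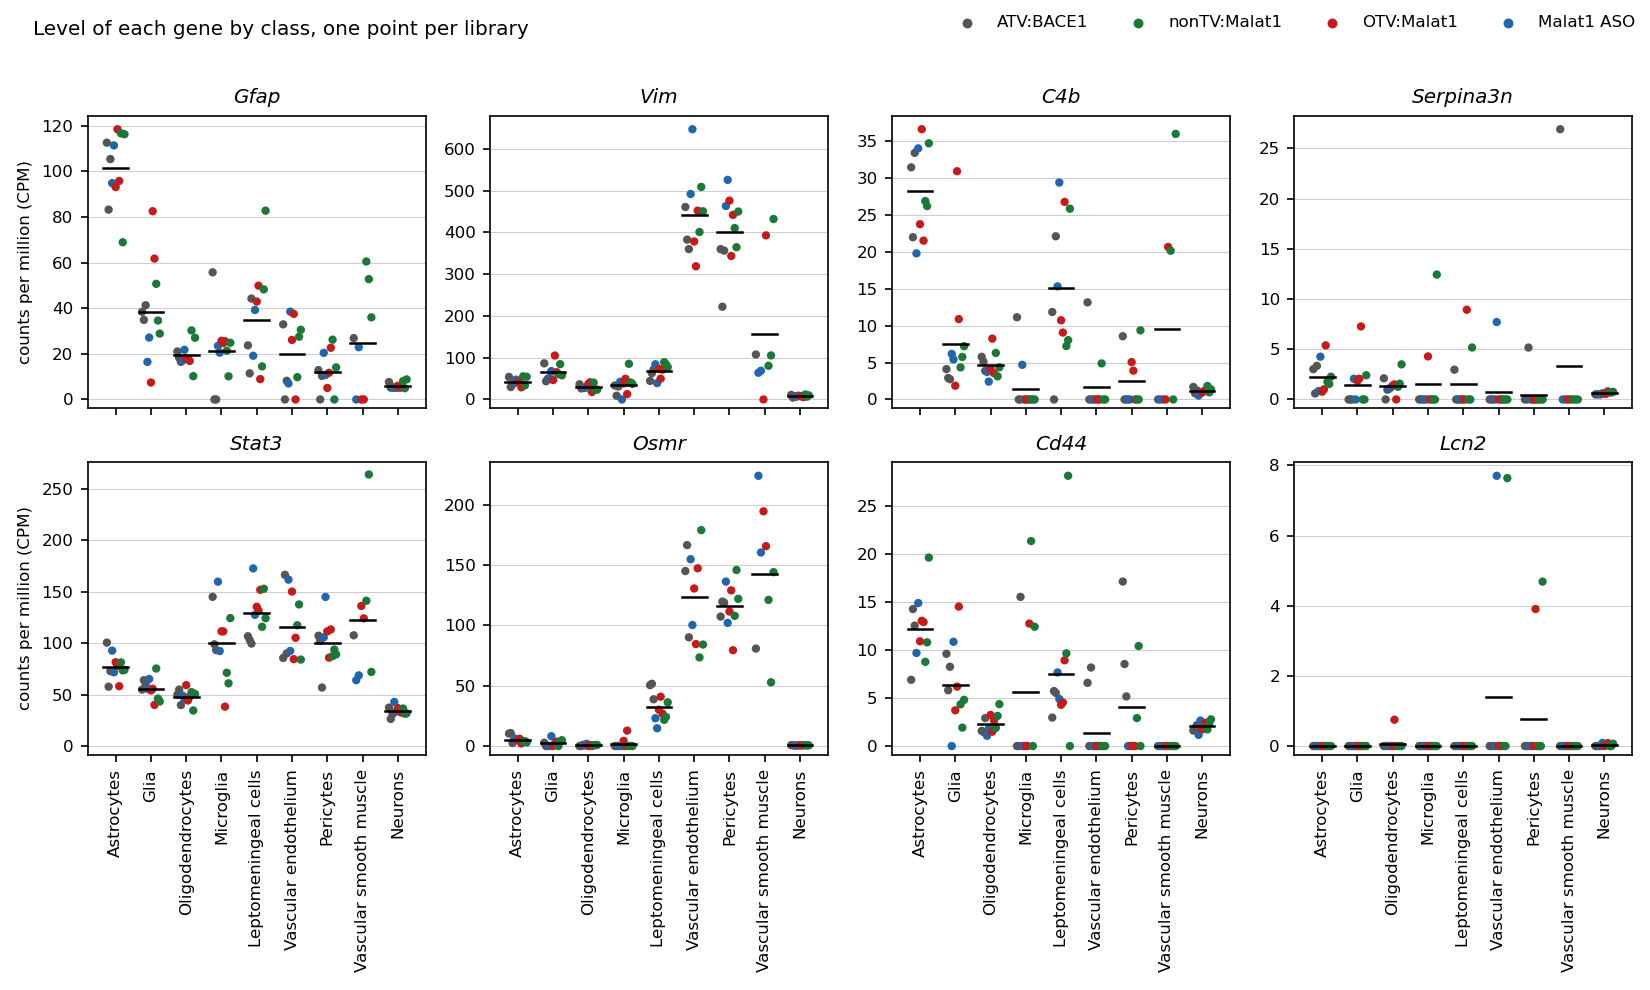
Level of each member gene (CPM, linear axis from 0) in each deposited class, with 1 point per library coloured by treatment group and a bar at the mean over libraries. Gfap and C4b are highest in astrocytes, whereas Vim and Osmr are highest in the vascular and mural classes.

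Vim (vimentin; chr2:13573927-13582826, plus strand), the filament gene of mesenchymal and endothelial cells, had a different order. Endothelium reached 441 CPM ± 89.8 and pericytes 401 CPM ± 83.4 (SD, n = 11 each), and these classes overlapped. Smooth muscle (156 CPM ± 162, n = 8), leptomeningeal cells (68.1 CPM ± 17.0) and glia (65.4 CPM ± 19.4) followed. Astrocytes stood at 42.1 CPM ± 9.64 (SD, n = 11), below glia in 11 of 11 libraries, and overlapped microglia (34.6 CPM) and oligodendrocytes (30.1 CPM ± 7.64). Only at the lower end did neighbours separate: oligodendrocytes were above neurons (8.004 CPM ± 2.28) in every library, with no overlap.

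C4b (complement component 4B; chr17:34728380-34743882, minus strand), a source of complement opsonin, was highest in astrocytes. The astrocyte level was 28.2 CPM ± 6.04 (SD, n = 11), and that of leptomeningeal cells 15.1 CPM ± 9.55 (SD, n = 11). Astrocytes were higher in 10 of 11 libraries, with overlapping ranges. Glia (7.49 CPM), oligodendrocytes (4.61 CPM), pericytes (2.45 CPM) and neurons (1.15 CPM) were lower.

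C4b shares sequence with its neighbour C4a (chr17:34809092-34823464, minus strand), which bears on how its reads can be assigned. In GENCODE M21, 35.2% of the 50-base windows of the C4b transcript (5379 bases) occur unchanged in C4a, and 38.1% of those in its last 500 bases, the end that 3′ libraries read. The last 1000 bases hold 5 windows of 30 bases with a single difference at their centre. Differing bases that lie close to another are not counted among them. The pairs at bases 5034 to 5063 and 5165 to 5194 are shown, 5′ to 3′, as examples, because a read needs a differing base to be placed. The capital marks the base that differs.
C4b, first window: aacttcctgagccggGcctcttgccgcctt
C4a, first window: aacttcctgagccggAcctcttgccgcctt
C4b, second window: tgaggagatgccttcAgaacaaatgtgcaa
C4a, second window: tgaggagatgccttcGgaacaaatgtgcaa
Reads from windows without a differing base cannot be told apart between the genes, so the C4b values are uncertain to that extent. C4a had 6 UMIs in astrocytes, where C4b had 588, and 249 UMIs in neurons. Serpina3n shared 6.90% of its windows with 7 other genes but none in its last 500 bases, and the other 6 members shared none.

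The other secreted members were at or near the limit of detection. Serpina3n (a serine protease inhibitor; chr12:104406729-104414329, plus strand) had 41 UMIs in all astrocytes, 1 to 7 per library, or 2.25 CPM ± 1.58 (SD, n = 11). Lcn2 (lipocalin 2, an iron-siderophore binding protein; chr2:32384633-32388252, minus strand) had 0 of 21153148 astrocyte UMIs, which allows a level of up to 0.142 CPM at a floor of 3 counts, counting error only. Elsewhere Lcn2 had 9 UMIs in neurons, 2 each in endothelium and pericytes and 1 in oligodendrocytes. Lcn2 was too low for a test in any class, and Serpina3n passed the low-count filter only in neurons.

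Osmr, the oncostatin M receptor subunit (chr15:6813577-6874969, minus strand), was chiefly a transcript of vascular classes. Smooth muscle (143 CPM ± 56.7, SD, n = 8), endothelium (123 CPM ± 37.7, SD, n = 11) and pericytes (116 CPM ± 17.97, SD, n = 11) overlapped. Leptomeningeal cells were at 32.6 CPM ± 11.99 and astrocytes at 5.40 CPM ± 2.89 (SD, n = 11 each), on 119 UMIs in all. Pericytes exceeded leptomeningeal cells, and leptomeningeal cells exceeded astrocytes, in 11 of 11 libraries without overlap. Astrocytes carried 91.7 CPM of the endothelial marker list, against 11470 CPM in endothelium, and the part of vascular RNA in their Osmr was not tested.

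Cd44, the hyaluronan receptor (chr2:102811141-102901665, minus strand), had 12.2 CPM ± 3.43 in astrocytes (SD, n = 11; 242 UMIs), from 6.90 to 19.6 CPM. Leptomeningeal cells (7.49 CPM) and glia (6.37 CPM) overlapped with it. Stat3 (chr11:100885098-100939540, minus strand), the transcription factor of the pathway, was broad. Leptomeningeal cells (129 CPM ± 22.9), smooth muscle (122 CPM, n = 8), endothelium (116 CPM ± 32.5), microglia (101 CPM ± 35.6) and pericytes (99.8 CPM ± 21.9) overlapped, and astrocytes followed at 76.5 CPM ± 12.8 (SD, n = 11). Neurons were lowest at 34.0 CPM ± 4.32.

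The genes whose mean level over the 10 classes was most like that of each member, among 8809 genes and as Pearson correlations of log2(CPM + 10) are given as a description. For Gfap they were Ntsr2 (r = 0.979), the aquaporin gene Aqp4 (0.972) and Sdc4 (0.970), and for C4b Ppp1r3c (0.959), Aldh1l1 (0.956) and Aldh1a1 (0.947). Osmr was most like the integrin gene Itga1 (0.991), Tns2 (0.980) and Bvht (0.979), and Vim most like Id1 (0.977), Pltp (0.974) and Gng5 (0.968). Cd44 was nearest to Hdac8 (0.936), Hif3a (0.934) and Gm11266 (0.933), and Stat3 to March7 (0.973), Aff1 (0.971) and Arf4 (0.966). Serpina3n was nearest to Btbd17 (0.909), Cldn10 (0.901) and Rgma (0.890), on few UMIs. The 10 classes share libraries and differ in depth. Perivascular macrophages, the highest class of the 3 genes nearest to Stat3, entered with 1 library, where Stat3 had 4 UMIs.

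Within astrocytes, counts of Gfap were gathered in few nuclei. Its 2160 UMIs lay in 1401 of 12720 nuclei (11.01%), up to 13 in 1 nucleus, and the 161 nuclei with at least 3 UMIs held 31.7% of them. For Vim (923 UMIs in 798 nuclei) such nuclei numbered 18 and held 6.83%. For Stat3, with 1675 UMIs in 1462 nuclei, 26 nuclei held 4.96%. C4b (588 UMIs in 536 nuclei), Cd44 (242 in 223) and Osmr (119 in 113) were close to 1 UMI per positive nucleus.

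Nuclei were then thinned to 500 UMIs each, which left out no astrocyte, to compare shares of nuclei at 1 depth. A Gfap UMI was found in 4.32% ± 0.75 of astrocytes (SD, n = 11 libraries; 10.8% without thinning) and in 0.378% of neurons. By group the shares were 4.04% in ATV:BACE1, 4.00% in nonTV:Malat1, 4.79% in OTV:Malat1 and 4.50% in Malat1 ASO. Library shares ran from 3.44 to 4.49% in ATV:BACE1, from 2.59 to 4.79% in nonTV:Malat1, from 4.52 to 5.01% in OTV:Malat1 and from 3.93 to 5.08% in Malat1 ASO. The 3 OTV:Malat1 libraries thus lay above the 3 ATV:BACE1 libraries by this measure, by 4.52 against 4.49% at the nearest and from a single random thinning. Without thinning the shares overlapped, at 8.27 to 12.11% in OTV:Malat1 and 8.39 to 11.99% in ATV:BACE1. Their summed Gfap levels, given below, also overlapped. No order is read from a share that the CPM did not show. The corresponding shares were 3.76% for Stat3 (neurons 1.79%), 2.29% for Vim (neurons 0.608%), 1.45% for C4b (neurons 0.0696%), 0.567% for Cd44 (neurons 0.109%) and 0.259% for Osmr (neurons 0.0462%).

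At this equal depth, Vim and C4b were found more often in the astrocyte nuclei with a Gfap UMI. Genes other than the members were not examined in this way, so the pattern is not shown to be particular to them. Of 545 nuclei with Gfap, 6.06% had a Vim UMI, against 2.15% of the 12175 without. The order held in 11 of 11 libraries, with means of 5.72% ± 2.40 and 2.13% ± 0.718 (SD, n = 11). A C4b UMI was found in 4.04% (22 nuclei) against 1.28%, with means of 4.39% ± 3.28 and 1.31% ± 0.435 (SD, n = 11). The C4b share was also higher in 11 of 11 libraries, but in nonTV:Malat1 replicate 1 only by 1.25% against 1.21%. With 22 such nuclei over 11 libraries and a single random thinning, the C4b order within a library can rest on very few nuclei. Stat3 (7.16% against 3.70%, 7 of 11 libraries) and Cd44 (1.65% against 0.501%, 6 of 11) did not keep 1 direction, and Osmr was at 0.184% against 0.279%. The nuclei with Gfap had been no deeper before thinning, with medians of 1303 and 1406 UMIs. Within the main deposited astrocyte cluster alone, which held 88.1% of the class, the Vim shares were 5.98% and 2.18% and the C4b shares 4.12% and 1.35%, both higher in 11 of 11 libraries. The C4b share there rested on 20 nuclei with both genes.

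**Figure D2:**
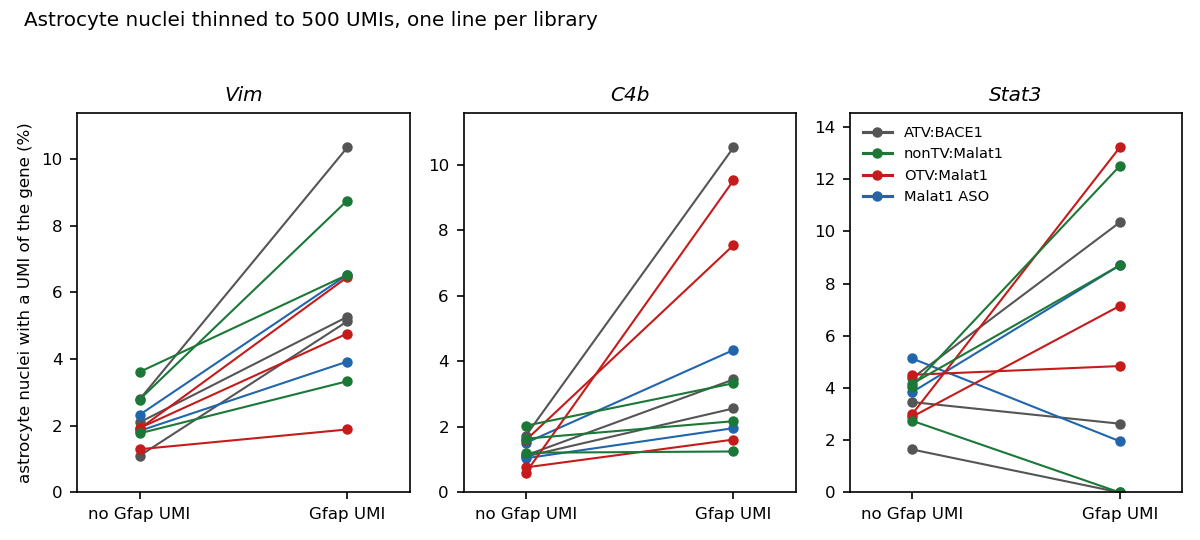
Percentage of astrocyte nuclei with a UMI of Vim, C4b or Stat3 among nuclei without and with a Gfap UMI, thinned to 500 UMIs, with 1 line per library coloured by treatment group. The Vim and C4b shares are higher with Gfap in 11 of 11 libraries, and the Stat3 share in 7 of 11. C4b and Gfap were found together in 22 nuclei over all libraries, from a single random thinning.

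The effect of treatment was tested in each class with edgeR's quasi-likelihood test, with batch as a block and Benjamini-Hochberg adjustment over all genes of the class. In astrocytes, 6 of the 8 members passed the low-count filter (Gfap, Vim, C4b, Osmr, Cd44 and Stat3). None of the 6 passed adjusted p 0.05 in any of the 5 comparisons of groups. For comparison, 0.00712% of the 14041 genes tested in astrocytes passed with OTV:Malat1 against ATV:BACE1, which is 1 gene, and the same share passed with Malat1 ASO against ATV:BACE1, OTV:Malat1 against nonTV:Malat1 and OTV:Malat1 against Malat1 ASO. With nonTV:Malat1 against ATV:BACE1 the share was 0.0%. In each OTV:Malat1 comparison the gene that passed was Malat1 itself. DESeq2 also called no member in any of the comparisons.

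Gfap levels in astrocytes gave no change that passed in any comparison of groups. In ATV:BACE1 they were 110.7, 89.7 and 102.2 CPM in replicates 1, 4 and 5 (scaled by TMM, the trimmed mean of M-values), and in OTV:Malat1 93.8, 116.3 and 84.5 CPM. In nonTV:Malat1 they were 123.1, 73.6 and 111.5 CPM, and in Malat1 ASO 101.9 and 107.1 CPM in replicates 1 and 5. All groups overlapped, and the lowest and the highest library were both nonTV:Malat1. The log2 change with OTV:Malat1 against ATV:BACE1 was -0.02 (SE 0.149, 95% interval -0.33 to 0.28), with nonTV:Malat1 0.01 (-0.28 to 0.31) and with Malat1 ASO 0.00 (-0.34 to 0.35). Between libraries of replicates 1, 4 and 5 the OTV:Malat1 change was -0.24, 0.37 and -0.27. Over the alternative settings given below, the fitted OTV:Malat1 change ran from -0.32 to 0.12.

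Vim in astrocytes was 53.0, 32.0 and 34.9 CPM in ATV:BACE1 and 41.6, 41.9 and 25.6 CPM in OTV:Malat1. It was 58.3, 36.2 and 52.1 CPM in nonTV:Malat1, and 42.1 and 45.7 CPM in Malat1 ASO. Each treated group overlapped with ATV:BACE1, and OTV:Malat1 lay just below Malat1 ASO. OTV:Malat1 differed from ATV:BACE1 by -0.11 (SE 0.184, 95% interval -0.48 to 0.26). Against nonTV:Malat1 the log2 difference was -0.36 (SE 0.174, 95% interval -0.72 to -0.01) and an edgeR adjusted p of 1.0. Between libraries of replicates 1, 4 and 5 that difference was -0.49, 0.21 and -1.02, so its direction was not shared. The choroid plexus marker sum in astrocytes was 779.4 to 894.8 CPM in OTV:Malat1 and 1143 to 1394 CPM in nonTV:Malat1, without overlap, and its part was not tested.

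C4b ran from 23.7 to 32.4 CPM in ATV:BACE1, from 19.0 to 36.0 CPM in OTV:Malat1, from 28.0 to 33.3 CPM in nonTV:Malat1 and was 21.3 and 32.8 CPM in Malat1 ASO. The log2 change with OTV:Malat1 was -0.10 (SE 0.208, 95% interval -0.53 to 0.32). Stat3 was 98.8, 62.2 and 70.6 CPM in ATV:BACE1 and 82.0, 76.4 and 51.3 CPM in OTV:Malat1. Its log2 change was -0.13 (SE 0.14, 95% interval -0.42 to 0.15), and with nonTV:Malat1 0.00 (-0.28 to 0.28). Cd44 was 6.79, 15.4 and 12.2 CPM in ATV:BACE1 and 10.98, 12.8 and 11.4 CPM in OTV:Malat1, a change of 0.13 (SE 0.287, 95% interval -0.46 to 0.71). These intervals leave room for larger changes in Cd44 and C4b than in Gfap or Stat3.

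Osmr had the lowest unadjusted p in astrocytes, on 2 to 24 UMIs per library. It was 10.2, 11.5 and 2.43 CPM in ATV:BACE1, 4.71, 5.91 and 1.90 CPM in OTV:Malat1, 4.01, 4.39 and 2.90 CPM in nonTV:Malat1, and 6.80 and 5.46 CPM in Malat1 ASO. Replicates 1 and 4 of ATV:BACE1 were the highest of all 11 libraries, and replicate 5 of the same group was the second lowest. The log2 change was -0.96 with OTV:Malat1 (SE 0.383, 95% interval -1.74 to -0.18; edgeR adjusted p = 1.0) and -1.16 with nonTV:Malat1 (SE 0.385, 95% interval -1.94 to -0.37; edgeR adjusted p = 1.0). These comparisons share the ATV:BACE1 libraries. Between libraries of replicates 1, 4 and 5 the nonTV:Malat1 change was -1.34, -1.39 and 0.25. The OTV:Malat1 level was below that of ATV:BACE1 in each of these replicates, in replicate 5 by 1.90 against 2.43 CPM. Summed endothelial markers in astrocytes ran from 47.1 to 176 CPM over all libraries. The smooth muscle list was 6.63 to 9.04 CPM in OTV:Malat1 and 5.17 to 6.54 CPM in ATV:BACE1, without overlap. The part of these lists in the Osmr values was not tested.

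**Figure D3:**
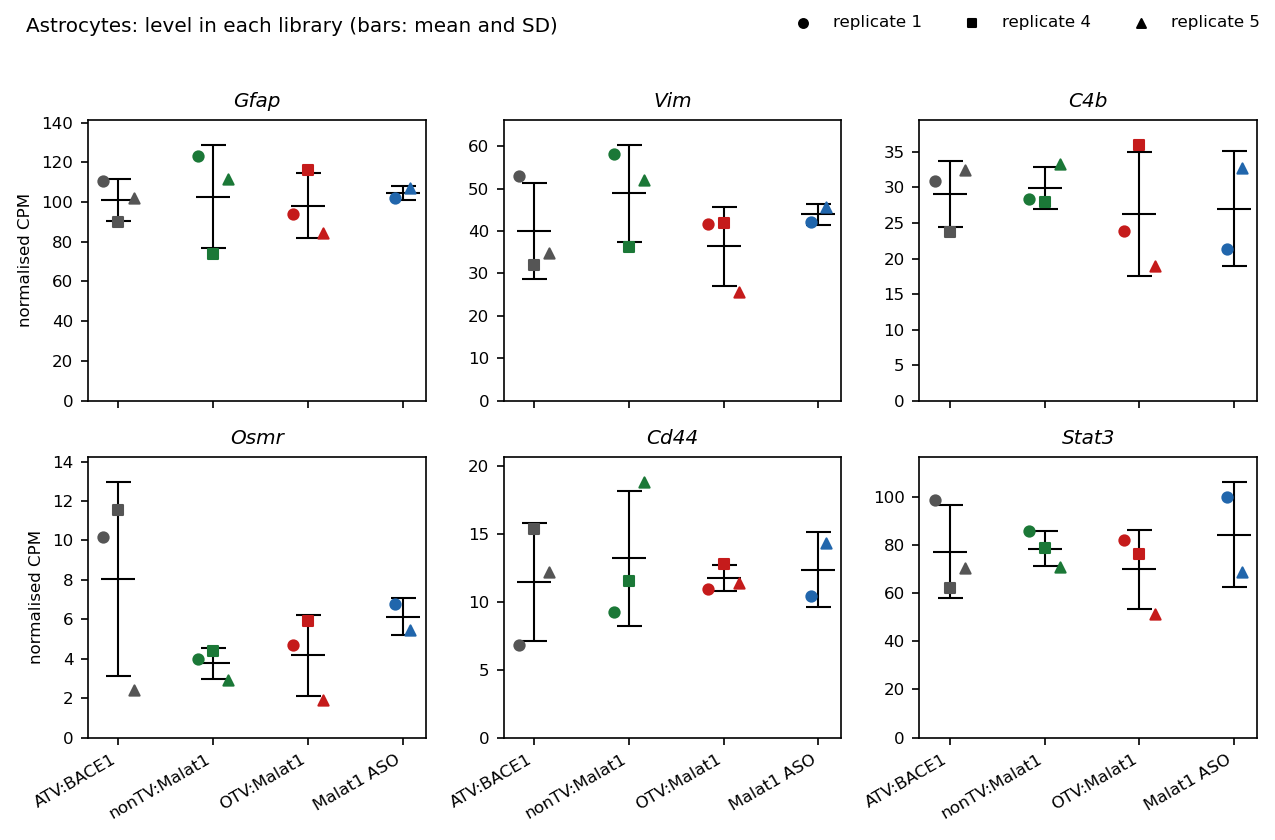
Level of the 6 tested members in astrocytes by treatment group (TMM-scaled CPM), with 1 point per library, its shape giving the replicate number, and bars at the group mean and SD. Each treated group overlaps with ATV:BACE1 for all 6 genes.

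Across the glial and vascular classes the result was the same. In the 3 comparisons with ATV:BACE1, 7 classes could be tested and gave 23 tests of members each: 6 members in astrocytes, 4 in leptomeningeal cells, 3 each in oligodendrocytes, glia, pericytes and endothelium, and 1 in microglia. None of the 23 passed with OTV:Malat1, where 0.0157% of all 57198 tests passed. None passed with nonTV:Malat1 (0.035% of all tests) or Malat1 ASO (0.0472%). Of 25 tests in 8 classes, none passed between OTV:Malat1 and nonTV:Malat1 (0.0306%) or between OTV:Malat1 and Malat1 ASO (0.0238%). In single classes and comparisons the share of genes that passed ran up to 0.353%, in microglia with nonTV:Malat1.

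Without adjustment, the edgeR p was under 0.05 in 2 of 23 tests with OTV:Malat1 (8.7%, against 4.6% of all tests), 1 with nonTV:Malat1 (4.35%, against 4.69%) and 3 with Malat1 ASO (13%, against 6.14%). It was 1 of 25 for OTV:Malat1 against nonTV:Malat1 (4.0%, against 4.01%) and 1 of 25 against Malat1 ASO (4.0%, against 4.41%). Directions were mixed. With OTV:Malat1, 10 changes were above 0 and 13 below, at a median of -0.03 (0.00 over all tests), and the lowest adjusted p was 0.904. With nonTV:Malat1 the split was 16 and 7 at a median of 0.01, and with Malat1 ASO 15 and 8 at a median of 0.03, with lowest adjusted p values of 0.928 and 0.697.

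**Figure D4:**
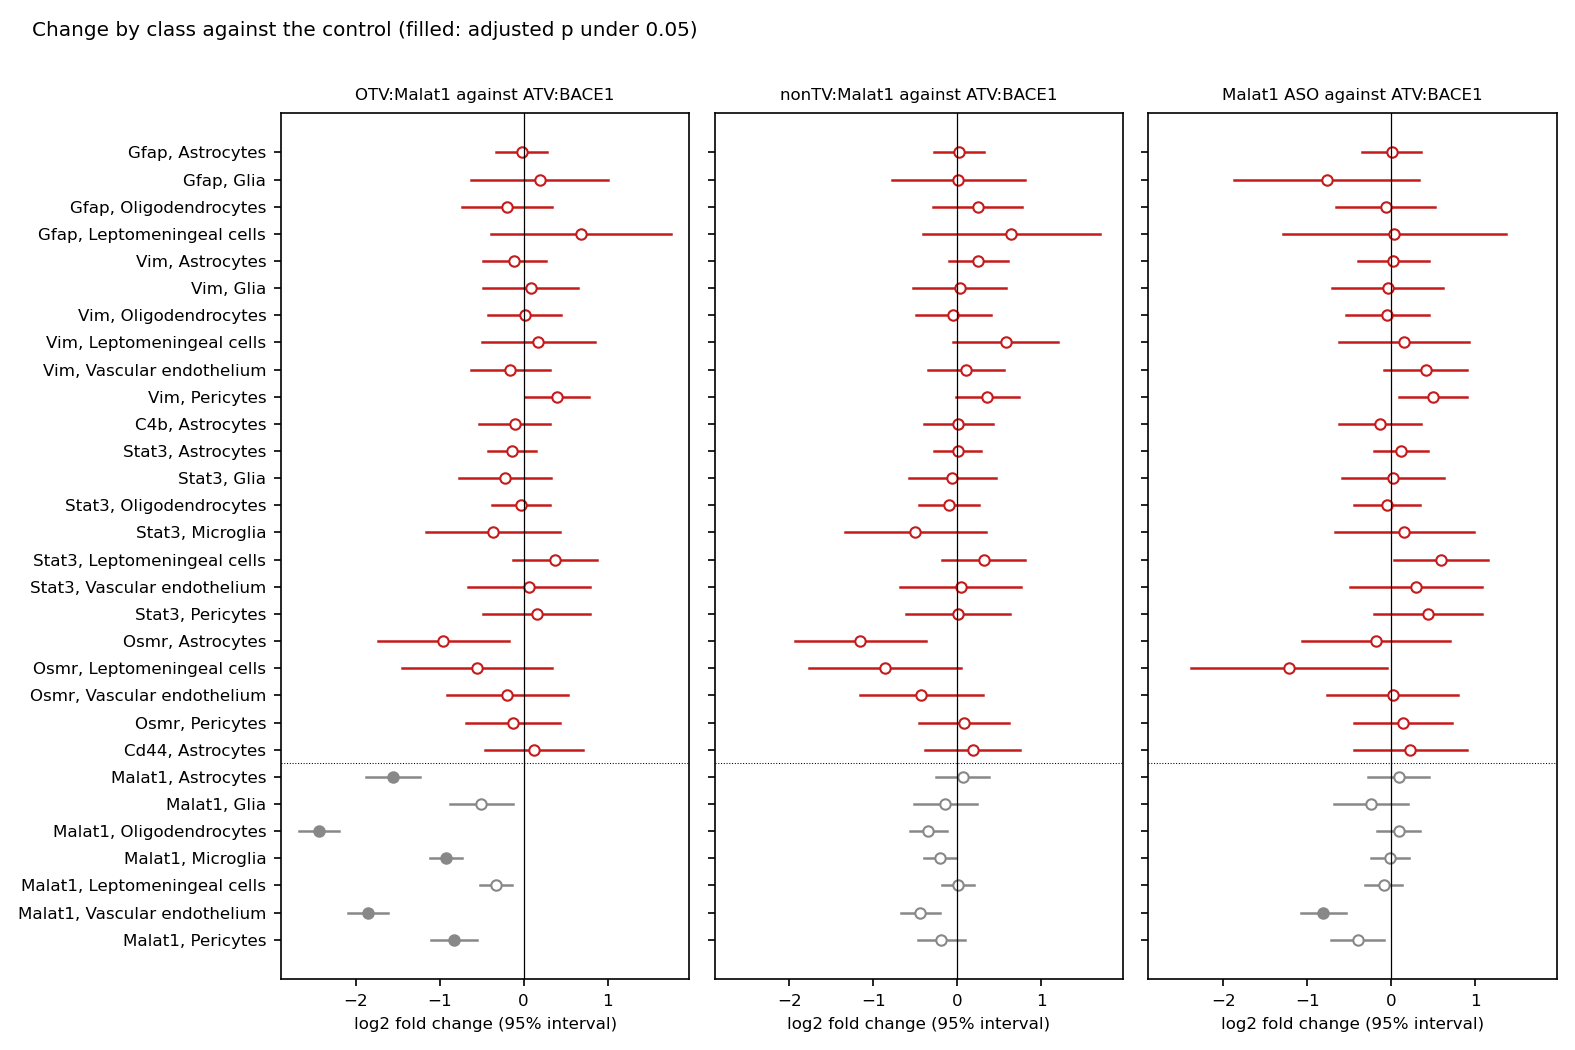
Log2 change of each tested member in each class against ATV:BACE1 (red), with its 95% interval, and of Malat1 in the same fits (grey), where a filled point has an adjusted p under 0.05. No member is filled, whereas Malat1 is filled with OTV:Malat1 in 5 of 7 classes.

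In pericytes, Vim was 362.6, 213.0 and 364.6 CPM in ATV:BACE1 and 473.0, 349.7 and 413.6 CPM in OTV:Malat1. It was 434.5, 345.9 and 450.9 CPM in nonTV:Malat1, and 493.4 and 525.3 CPM in Malat1 ASO. Both ASO libraries were above all ATV:BACE1 libraries, the other groups overlapped with them, and within each batch every treated library was above its ATV:BACE1 library. The log2 change was 0.49 with Malat1 ASO (SE 0.197, edgeR adjusted p = 0.758), 0.39 with OTV:Malat1 (SE 0.187, edgeR adjusted p = 1.0) and 0.36 with nonTV:Malat1 (edgeR adjusted p = 0.967). All 3 rest on the same ATV:BACE1 libraries, and in this class 0.0162% of genes passed with Malat1 ASO and with OTV:Malat1. The endothelial marker sum in this class was 8075 to 10140 CPM in ATV:BACE1 and 9192 to 9292 CPM in Malat1 ASO, and the smooth muscle marker sum 25.6 to 36.2 CPM in ATV:BACE1, 68.0 to 82.0 CPM in OTV:Malat1 and 27.3 to 59.0 CPM in Malat1 ASO. The smooth muscle list did not overlap between OTV:Malat1 and ATV:BACE1. Nor did the neuron list (507.6 to 600.7 CPM in OTV:Malat1, 307.5 to 467.2 CPM in ATV:BACE1), and the oligodendrocyte list did not overlap between nonTV:Malat1 (343.7 to 498.0 CPM) and ATV:BACE1 (511.5 to 831.5 CPM). The part of these lists in the Vim values was not tested.

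In endothelium, Vim was 468.8, 357.6 and 367.3 CPM in ATV:BACE1, 422.7, 491.2 and 465.7 CPM in nonTV:Malat1, 380.3, 311.5 and 422.4 CPM in OTV:Malat1, and 516.9 and 659.7 CPM in Malat1 ASO. The ASO libraries were the highest of the 11. OTV:Malat1 against Malat1 ASO gave a log2 difference of -0.57 (SE 0.245, edgeR adjusted p = 0.996), where 0.0225% of genes passed. The astrocyte marker sum in endothelium was 482.8 to 610.0 CPM in OTV:Malat1 and 208.0 to 323.4 CPM in Malat1 ASO. The choroid plexus marker sum was 1011 to 1088 CPM and 1118 to 1441 CPM. Neither list overlapped between these groups, and their part in the Vim values was not tested. The difference was -0.38 without Malat1 ASO replicate 5. Osmr gave log2 changes of -0.19 in endothelium and -0.12 in pericytes with OTV:Malat1. The endothelial value was 0.22 without OTV:Malat1 replicate 4 and -0.51 without OTV:Malat1 replicate 5. In smooth muscle Osmr was not tested, on 1 to 10 UMIs per library. It was 178.3 to 208.4 CPM in OTV:Malat1 (n = 2) and 41.5 to 135.2 CPM in nonTV:Malat1 (n = 3). In Malat1 ASO it was 174.1 to 214.0 CPM (n = 2) and in ATV:BACE1 85.05 CPM (n = 1).

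**Figure D5:**
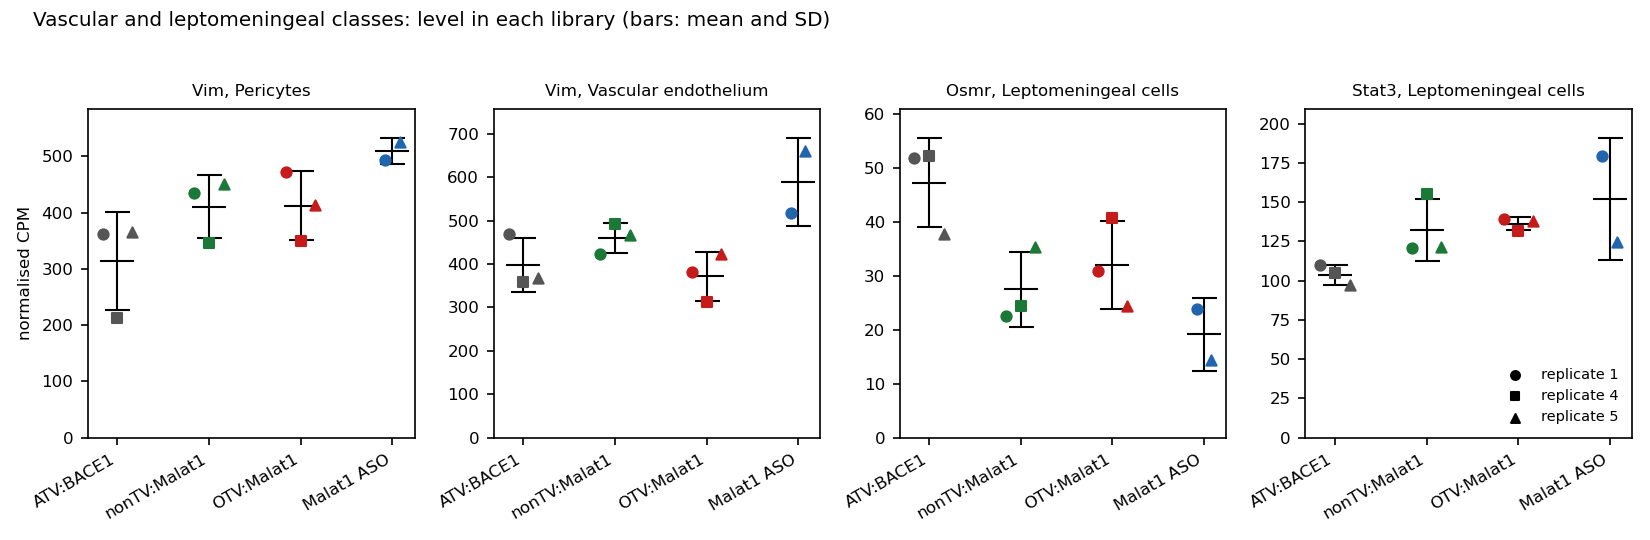
Level of Vim in pericytes and endothelium and of Osmr and Stat3 in leptomeningeal cells by treatment group (TMM-scaled CPM), with 1 point per library, its shape giving the replicate number, and bars at the group mean and SD. Both Malat1 ASO libraries have the highest Vim in either class, and the 3 ATV:BACE1 libraries have the lowest leptomeningeal Stat3.

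In leptomeningeal cells, Osmr was 51.8, 52.3 and 37.8 CPM in ATV:BACE1 and 23.9 and 14.4 CPM in Malat1 ASO. It was 22.6, 24.5 and 35.4 CPM in nonTV:Malat1 and 30.9, 40.8 and 24.4 CPM in OTV:Malat1. ATV:BACE1 did not overlap with Malat1 ASO or nonTV:Malat1, on 3 to 17 UMIs per library. The log2 change with Malat1 ASO was -1.22 (SE 0.58, edgeR adjusted p = 0.697), in a comparison where 0.0919% of genes passed. Stat3 in the same class was 109.8, 104.6 and 97.2 CPM in ATV:BACE1, 139.2, 131.4 and 138.3 CPM in OTV:Malat1, 120.6, 155.2 and 121.3 CPM in nonTV:Malat1, and 179.4 and 124.8 CPM in Malat1 ASO. Every treated library lay above the 3 ATV:BACE1 libraries. The change with Malat1 ASO was 0.59 (SE 0.277, edgeR adjusted p = 0.697), or 0.24 without Malat1 ASO replicate 1. With OTV:Malat1 it was 0.37 (edgeR adjusted p = 0.996) and with nonTV:Malat1 0.31 (edgeR adjusted p = 0.974). The separations of Osmr and Stat3 between groups are description only, as the share of all genes that separate in this way is not given. The leptomeningeal marker sum was 2135 to 2910 CPM in ATV:BACE1 and 2158 to 2462 CPM in Malat1 ASO, and the astrocyte marker sum 2150 to 2450 and 1883 to 2158 CPM. The pericyte marker sum in this class was 332.3 to 403.8 CPM in ATV:BACE1 and 245.2 to 268.4 CPM in Malat1 ASO, and the endothelial sum 223.4 to 281.7 and 291.4 to 313.8 CPM, neither with overlap. The pericyte sum was 265.5 to 379.1 CPM in nonTV:Malat1 and 241.1 to 349.3 CPM in OTV:Malat1, and the part of these lists in the Osmr and Stat3 values was not tested.

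Gfap was also tested in 3 classes with far less of it. With OTV:Malat1 against ATV:BACE1 its log2 change was -0.20 in oligodendrocytes, 0.19 in glia and 0.68 in leptomeningeal cells, where the 95% interval ran from -0.39 to 1.75. The leptomeningeal value was 0.003 without OTV:Malat1 replicate 1, 0.32 without ATV:BACE1 replicate 4 and 1.25 without OTV:Malat1 replicate 5. The glial value was -0.60 without OTV:Malat1 replicate 4, -0.08 without ATV:BACE1 replicate 4, -0.02 without OTV:Malat1 replicate 5 and 0.99 without OTV:Malat1 replicate 1, so its sign rested on single libraries. With Malat1 ASO, glial Gfap was 17.0 and 26.6 CPM, below the 35.5 to 41.4 CPM of ATV:BACE1, on 8 to 28 UMIs per library. The log2 change was -0.77 (95% interval -1.87 to 0.33, edgeR adjusted p = 0.909), from -0.96 to -0.48 over the alternatives. Stat3 was the only member that could be tested in microglia. In neurons, 7 members were tested and none passed in any comparison of groups (0.00483% of all genes passed with OTV:Malat1 against either ATV:BACE1 or nonTV:Malat1, 0.0531% with Malat1 ASO against ATV:BACE1, and 0.0% in the other comparisons). With Malat1 ASO against ATV:BACE1, neuronal Stat3 had a log2 change of 0.26 (edgeR adjusted p = 0.354) and C4b one of -0.96 (edgeR adjusted p = 0.369). Neuronal C4b was 0.563 and 0.818 CPM in Malat1 ASO and 0.894 to 1.66 CPM in ATV:BACE1. The astrocyte marker sum in neurons was 394.9 to 401.4 and 440.9 to 469.1 CPM in these groups and the leptomeningeal sum 11.6 to 14.5 and 15.6 to 16.8 CPM, neither with overlap. Neuronal Gfap differed by -0.44 between OTV:Malat1 and nonTV:Malat1 (edgeR adjusted p = 1.0), where the choroid plexus sum was 257.1 to 288.3 and 362.0 to 472.1 CPM. The part of these lists was not tested.

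Whether a change in astrocytes differed from the change of the same gene in another class was tested with limma on the difference between the classes within each library. No member passed in the 3 comparisons with ATV:BACE1, against 0.00238% of all 42100 tests with OTV:Malat1, 0.019% with nonTV:Malat1 and 0.0166% with Malat1 ASO. The smallest p was for Osmr with nonTV:Malat1, where the astrocyte change minus the pericyte change was -0.999 (SE 0.366, limma adjusted p = 0.524). With OTV:Malat1, Stat3 in astrocytes minus leptomeningeal cells gave -0.51 (limma adjusted p = 0.827).

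Among the other genes of the pathway, 1 passed in any class. In the list of gp130 and STAT3 signalling genes (ligands, receptor chains, Janus kinases and inhibitors), 9 of 15 could be tested in at least 1 class, and none passed in any comparison of groups. No gene passed among other pan-reactive genes (4 of 7 tested), injury-associated reactive genes (4 of 11), filament partners (3 of 4), complement partners (4 of 6) or lipocalin and CD44 partners (2 of 4). In astrocytes the median log2 change with OTV:Malat1 against ATV:BACE1 was 0.06 for signalling genes, 0.14 for other pan-reactive genes, -0.14 for inflammation-associated genes, -0.03 for injury-associated genes, -0.13 for filament partners, -0.08 for complement partners and -0.06 for lipocalin and CD44 partners. Without adjustment, edgeR gave a p under 0.05 with Malat1 ASO against ATV:BACE1 in 4 of 16 tests of other pan-reactive genes, at a median log2 change of 0.30 over classes, and in 5 of 32 tests of inflammation-associated genes, at a median of 0.05. The share over all tests was 6.14%, and the median over all genes was -0.001. With OTV:Malat1 the counts were 2 of 16 and 2 of 32, against 4.6% of all tests, and with nonTV:Malat1 1 of 16 and 2 of 32, against 4.69%. The signalling genes had 3, 1 and 3 of 49 tests under 0.05 with OTV:Malat1, nonTV:Malat1 and Malat1 ASO, and the injury-associated genes 2, 2 and 1 of 11. Between OTV:Malat1 and nonTV:Malat1 the injury-associated genes had 3 of 12 and the inflammation-associated genes 0 of 33, against 4.01% of all tests. Between OTV:Malat1 and Malat1 ASO the inflammation-associated genes had 5 of 33, against 4.41%. With OTV:Malat1, nonTV:Malat1 and Malat1 ASO against ATV:BACE1, complement partners had 2, 2 and 1 of 16. Filament partners had 0, 1 and 2 of 13, and lipocalin and CD44 partners 0 of 10 each time.

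Of the inflammation-associated reactive genes, 10 of 12 were tested, and 1 of 32 tests passed, with Malat1 ASO against ATV:BACE1: Fkbp5 in leptomeningeal cells (0.0472% of all tests passed). Fkbp5 encodes a co-chaperone of steroid hormone receptors and is a textbook glucocorticoid target. It was 253.1, 215.0 and 140.4 CPM in ATV:BACE1, 268.7, 285.8 and 136.4 CPM in nonTV:Malat1, 362.2, 321.6 and 138.3 CPM in OTV:Malat1, and 442.6 and 326.3 CPM in Malat1 ASO. Replicate 5 was the lowest of each group, and both ASO libraries were above all ATV:BACE1 libraries. The log2 change was 1.04 (SE 0.219, 95% interval 0.59 to 1.48, edgeR adjusted p = 0.0381). In this comparison the leptomeningeal class also differed without overlap in the pericyte and endothelial marker sums given above, and their part in the Fkbp5 values was not tested. It rested on the setting: with DESeq2 the adjusted p was 0.852, without the batch block 0.999, and it passed in 6 of 21 alternatives, with a log2 change of 0.84 to 1.34 over all of them. The call was lost without any single ATV:BACE1 or Malat1 ASO library, and without replicate 4 of nonTV:Malat1 or OTV:Malat1. Nearest to the threshold after it among the glial and vascular classes was Ggta1 in pericytes with Malat1 ASO, at a log2 change of -2.02 (edgeR adjusted p = 0.0857).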

How the data were processed

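Single-nucleus libraries were processed by the authors with Cell Ranger 5.0.0 and Seurat 4 on mm10, per the submitters' processing notes. The deposited values are raw UMI counts per gene and nucleus, with a deposited table of class, cluster and doublet call per nucleus. The class prediction score in that deposited table is a fraction from 0 to 1, and the authors' reference for it is not given in the sources used here. Mitochondrial percentages in it are deposited as percent of a nucleus's UMIs, made by the authors, and were not used in any test. Summed UMIs equalled the deposited total in 110304 of 110304 nuclei, none under 499 UMIs. Members and lists were chosen with earlier results of these data known.

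Counts were summed per library and class where a library had at least 20 nuclei, and a comparison needed 2 such libraries per group. Vascular smooth muscle could be tested only for OTV:Malat1 against nonTV:Malat1 and Malat1 ASO. Of the members, only Vim and Stat3 were tested there, so Osmr was not tested in the class with its highest mean. Perivascular macrophages (125 nuclei) could not be tested. Each class was fitted with edgeR 4.0.16 (R 4.3.3; TMM, filterByExpr by group, quasi-likelihood test), batch as a block and Benjamini-Hochberg adjustment over all genes of the class. Levels are CPM of the class total. Levels of single genes by group are CPM scaled by TMM, whereas marker sums by group are not scaled by TMM. Intervals are 95% and come from the fit. Ranges said not to overlap are description only, and the share of all genes without overlap is not given. Differences between classes used limma 3.58.1 on log2 CPM (prior count 2) with precision weights that were added after tests on simulated data; fits without them are an added alternative. DESeq2 1.42.0 was an alternative. Figures and descriptive values used Python 3.11.15 (numpy 2.4.6, pandas 2.3.3, scipy 1.17.1, matplotlib 3.10.9).

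The replicate numbers pair libraries: in astrocytes, deviations from group means correlated at 0.252 to 0.60 for 15 pairs with the same number and at -0.539 to 0.083 for 30 pairs with different numbers, over 10608 genes. Each number is 1 deposited batch (1, 4 and 5 are batches 1, 3 and 4). Named genes are the 8 members, listed genes that passed, the nearest gene outside the threshold and the 3 genes most like each member over classes, among those of at least 50 CPM in a class. Those for Lcn2 rested on almost no UMIs and were left out. Positions and transcripts are from GENCODE M21. The labels give the region as posterior brain, whereas the deposited nucleus table gives cortex.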

Additional observations from a re-analysis of the deposited data

How the results depend on the processing

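In the glial and vascular classes, no member passed adjusted p 0.05 in any of 21 alternatives (DESeq2, no replicate block, other scaling and filters, other choices of nuclei, each library left out in turn), and the lowest adjusted p was 0.621. The differences between astrocytes and other classes also gave 0 members without the replicate block, without precision weights (an alternative chosen after seeing the data), with a prior count of 0.5 and with each library left out, at a lowest adjusted p of 0.438. Of 2411 recomputed log2 changes of members, 275 had another sign than the reported one. Without the replicate block the per-class count of members passing was 0 in each comparison. Changes of Osmr in astrocytes ranged from -1.13 to -0.73 with OTV:Malat1 and from -1.34 to -0.91 with nonTV:Malat1. The alternatives were not run in neurons. The count of other listed genes that passed, 1 as reported, became 0 with DESeq2, without the replicate block, with total counts in place of TMM, without nuclei under 1000 UMIs, without doublets, at a prediction score of at least 0.8 and in the main cluster of each class. It became 5 without the low-count filter, 3 with only the compared groups in the fit (Fkbp5 in leptomeningeal cells not among them, adjusted p = 0.458), and 0 to 2 with 1 library left out. The share of astrocyte nuclei with a Gfap UMI was 7.21% at 1000 UMIs and 10.8% without thinning. Depth limits Serpina3n, Lcn2 and, in astrocytes, Osmr. Groups of 2 or 3 libraries limit all tests.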

Other observations

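A small set of nuclei named astrocytes, singled out after its values were seen, lay in deposited cluster 1 and not in the main astrocyte cluster, cluster 4. Cluster 1 otherwise holds 22208 nuclei named neurons. These 42 nuclei, at a median of 622 UMIs and a median prediction score of 0.741, had 27 Gfap UMIs in 14 nuclei from 7 libraries. This is 932 CPM (exact Poisson 95% interval 614.4 to 1356, counting error only), against 103.8 CPM in the main astrocyte cluster of 11208 nuclei. Vim was at 241.7 CPM on 7 UMIs. A set of 913 astrocyte nuclei in another cluster, 18.7% of them called doublets, had 78.0 CPM of Gfap.

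Fkbp5, which passed in leptomeningeal cells with Malat1 ASO against ATV:BACE1, did not pass in the 5 other classes where that comparison tested it. Its log2 change was 1.03 in oligodendrocytes (edgeR adjusted p = 0.159), 1.36 in microglia (0.356), 0.55 in neurons (0.0522), 0.24 in glia and 0.17 in astrocytes (0.927).

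Of the marker genes, 2 passed in a class they do not define. Ttr, the choroid plexus carrier of thyroid hormone, was lower in microglia with OTV:Malat1 than with nonTV:Malat1 (log2 change -0.94, edgeR adjusted p = 0.00347). In that class and comparison 0.147% of 3400 genes passed. Ttr is part of the choroid plexus list and gave 1542 of its 1553 CPM in microglia, so the summed list mostly restates Ttr. The sum was lower in every OTV:Malat1 library than in every nonTV:Malat1 library in the 8 classes other than smooth muscle and macrophages. These classes come from the same libraries, so they are not separate observations, and the share of all genes that separate in this way is not given. In neurons it was 257.1 to 288.3 against 362.0 to 472.1 CPM, and in endothelium 1011 to 1088 against 1634 to 1955 CPM. In microglia ATV:BACE1 overlapped with both groups, at 1007 to 2107 CPM. It also did so in neurons (241.7 to 548.3 CPM) and endothelium (1032 to 2002 CPM). Slc1a2, the astrocyte glutamate transporter, was lower in endothelium with Malat1 ASO than with ATV:BACE1 (log2 change -1.38, edgeR adjusted p = 0.0209). There 0.27% of 4449 genes passed. In the same endothelial nuclei the summed astrocyte list ran from 208.0 to 323.4 CPM in Malat1 ASO and from 482.7 to 783.6 CPM in ATV:BACE1. Slc1a2 is part of that list and gave 330.1 of its 518.6 CPM in endothelium over all libraries.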
